A study of Drosophila melanogaster with 18 samples.

Results

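The bithorax complex of Drosophila melanogaster lies on chromosome arm 3R and holds the Hox genes Ubx, abd-A and Abd-B, and the genes described here are its neighbours. They are the genes of the deposited gene table that start between positions 16300000 and 17300000 of 3R in the BDGP6 build, without the Hox genes themselves, and that held at least 10 counts summed over the 18 libraries. Of 112 such rows, 103 passed this minimum, out of 14237 genes in the table and 12762 that passed the same minimum in the whole table. The complex itself spans 315.6 kb, from the low end of Ubx at 16656623 to the high end of Abd-B at 16972236. Of the 103 neighbours, 55 start to its left, at lower coordinates, 1 starts inside the span and 47 start to its right, and all 103 are annotated as protein coding. The members were thus chosen by position and selected on one measured value, the total count. The lowest totals just inside the minimum were 11 counts for CG5265 and 12 each for CG44044 and CG5225, and the highest just outside were 8 counts each for Glut3 and CG31269. The same minimum applied to every gene of the table, and a gene that is nearly silent in the reference ovary could pass through its counts in a mutant alone. The neighbourhood was chosen, and AhcyL2 singled out, with the behaviour of the Hox genes and of AhcyL2 in these libraries already known. The values of AhcyL2 are therefore given as a description and without a test. Where its call enters a count of neighbours, it adds no support.

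Hox genes encode homeodomain transcription factors that give segments their identity along the body axis. In the fly, Ubx, abd-A and Abd-B specify the posterior thorax and the abdomen. They are held silent in cells that should not use them by Polycomb group proteins, which act on chromatin, and kept active elsewhere by Trithorax group proteins. Boundary elements, bound by insulator proteins, divide the regulatory DNA of the complex into domains, and the outer ends of the complex border on genes with unrelated roles. The nuclear lamina is the protein network under the inner nuclear membrane. Emerin is a LEM-domain protein of that network, BAF is a DNA-binding protein that joins LEM-domain proteins to chromatin, and Chk2 is a checkpoint kinase.

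RNA was sequenced from ovaries of newly eclosed females, about 100 pairs of ovaries per library. The reference strains were CS (4 libraries) and yw (3 libraries), which together are called wild type. The emerin mutants carried null alleles in trans, G over PI (2 libraries) or G over PK (2 libraries), in a yw background. G is a transposon insertion, PK a stop mutation and PI an amino acid substitution. The germline knockdown (baf GLKD, 2 libraries) combined the nosgal4 driver with a short hairpin RNA against baf, so that the hairpin was made in the germ line and not in the somatic cells, and its reference carried the nosgal4 driver alone (2 libraries). The double mutant (chk2, emerin, 3 libraries) carried chk2 null alleles P6 over P30 together with emerin G over PK. The sample labels give 25 °C for the baf GLKD females and room temperature for all others, while the study's methods place every cross at 25 °C. If the labels hold, temperature and knockdown cannot be told apart. Newly eclosed ovaries lack the late egg chambers, and the RNA came from whole ovaries: fewer cells of a type and less RNA per cell cannot be told apart in any result below.

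Library totals ran from 18138657 to 28372959 counts. In CPM (counts scaled to a common library size by TMM), the emerin gene Ote stood at 64.8 to 85.3 in wild type, 32.7 to 59.0 in G/PI, 11.7 to 17.9 in G/PK and 21.6 to 23.1 in chk2, emerin. The baf gene stood at 86.0 to 110 in nosgal4 and 66.4 to 72.5 in baf GLKD, but also at 51.6 to 75.1 in chk2, emerin. The chk2 gene lok stood at 194 to 247 in wild type and 14.3 to 16 in the double mutant. Without a chk2 mutation, lok was also low in emerin, at 55.2 to 121. In baf GLKD it was 137 to 144, against 246 to 286 in nosgal4. Markers of cell types moved strongly between the groups. The summed CPM of 8 germline genes was 3236 to 5047 in wild type, 4638 to 4670 in nosgal4 and 4323 to 4461 in chk2, emerin, but 344 to 1543 in emerin and 1720 to 1890 in baf GLKD. The summed CPM of 7 muscle sheath genes was 3130 to 6846 in wild type, 2675 to 3767 in nosgal4, 4097 to 5252 in chk2, emerin, 25147 to 30140 in emerin and 13182 to 15402 in baf GLKD. None of the germline, muscle sheath or fat body markers was at 0 in any library. The hemocyte marker He and the somatic niche marker en were at 0 in some library. Other somatic lists also held higher markers (edgeR adjusted p under 0.05). Of 7 somatic niche and follicle cell markers, 5 were higher and 1 lower in emerin, and 4 were higher in baf GLKD. The 2 tracheal markers were higher in each. Of 4 nervous system markers 2 were higher in emerin and 1 in baf GLKD. In 7 libraries (CS 1 and 2, yw 1 and 2, G/PI 1, nosgal4 1 and baf GLKD 1), called the first library set, the totals of the deposited transcript tables were 7.4 to 18.9 times below those of the gene table, and in the other 11, the second library set, they matched.

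The neighbourhood holds genes of very different level. Levels of different genes were set beside each other in TPM, which corrects for transcript length. In wild type 40 of the 103 neighbours had a mean under 1 TPM, 21 lay at 1 to 10 TPM, 35 at 10 to 100 TPM and 7 at 100 TPM or more, with a median of 6.92 TPM. For CS 1, CS 2, yw 1 and yw 2 the TPM rest on transcript tables with 8.92 to 18.9 times fewer counts than the gene table, so these means are less certain for low genes. The highest were the chaperonin subunit gene CCT3 at 299 TPM, the splicing factor gene SF2 at 220 TPM, Manf, which encodes a secreted factor linked to stress of the endoplasmic reticulum, at 129 TPM, and the nucleolar GTPase gene Ns1 at 116 TPM. Exons of 28 neighbours overlap those of another gene, and no strand setting of the counting is given in the sources used here, so reads of such pairs may be shared. Among the genes described below this concerns cal1 and cher, Sf3a1 and CG3534, Mur89F and CG5292, Arl6IP1 and CG10324, EMC2B and MESK4, and CG17931.

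The Hox genes set the pattern against which the neighbours were read. The CPM of abd-A was 54.2, 45.1, 47.3 and 61.4 in CS, 25.2, 35.0 and 24.1 in yw, 233 and 343 in G/PI, and 329 and 382 in G/PK. It was 32.2 and 21.4 in nosgal4, 143 and 217 in baf GLKD, and 46.9, 30.7 and 35.4 in chk2, emerin. All emerin and baf GLKD libraries lay above all reference libraries, and the double mutant lay within the wild-type range. On the log2 scale abd-A differed by 2.95 ± 0.25 (SE) between emerin and wild type, by 2.75 ± 0.42 between baf GLKD and nosgal4, and by -0.15 ± 0.28 between chk2, emerin and wild type. Abd-B was at 2.23 to 4.51 CPM in wild type, at 20.8, 33.0, 34.1 and 34.6 CPM in emerin, at 2.04 and 3.97 CPM in nosgal4, at 18.9 and 20.2 CPM in baf GLKD and at 2.35 to 3.65 CPM in chk2, emerin. Ubx followed at a lower level, from 0.694 to 1.73 CPM in wild type and from 1.94 to 3.48 CPM in emerin, with a log2 difference of 1.3 ± 0.35.

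Across the neighbourhood as a whole, the share of genes that changed was near the share over the whole genome. Between emerin and wild type, 35 neighbours were higher and 30 were lower at an adjusted p under 0.05 (edgeR quasi-likelihood test, Benjamini-Hochberg over 12762 genes). This is 63.1% of the 103 neighbours, against 54.9% of all genes tested, 56.7% of 2990 genes in the rest of arm 3R and 53.3% of 90 genes around the Antennapedia complex, the other Hox cluster of the fly. The higher calls were 34.0% of the neighbours and 28.3% of all genes, and the lower calls 29.1% and 26.6%. AhcyL2 is 1 of the genes counted here and in the counts of neighbours that follow. The 35 higher also include the adjacent protease genes CG31265, CG17475, CG4053, CG31266, CG31267 and CG5246, each with most emerin counts in 1 library. CG17477, also higher, had 0 counts outside emerin and baf GLKD and met the minimum only through them. The median log2 fold change was 0.26 over the neighbours and 0.12 over all genes. To the left 18 of 55 neighbours were higher and 15 lower, and to the right 17 of 47 were higher and 15 lower. Among the 17 neighbours nearest to the complex (8 on each side and the gene inside it) 4 were higher and 3 lower, or 41.2%. The 4 include AhcyL2, whose call was known when the neighbourhood was chosen.

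**Figure D1:**
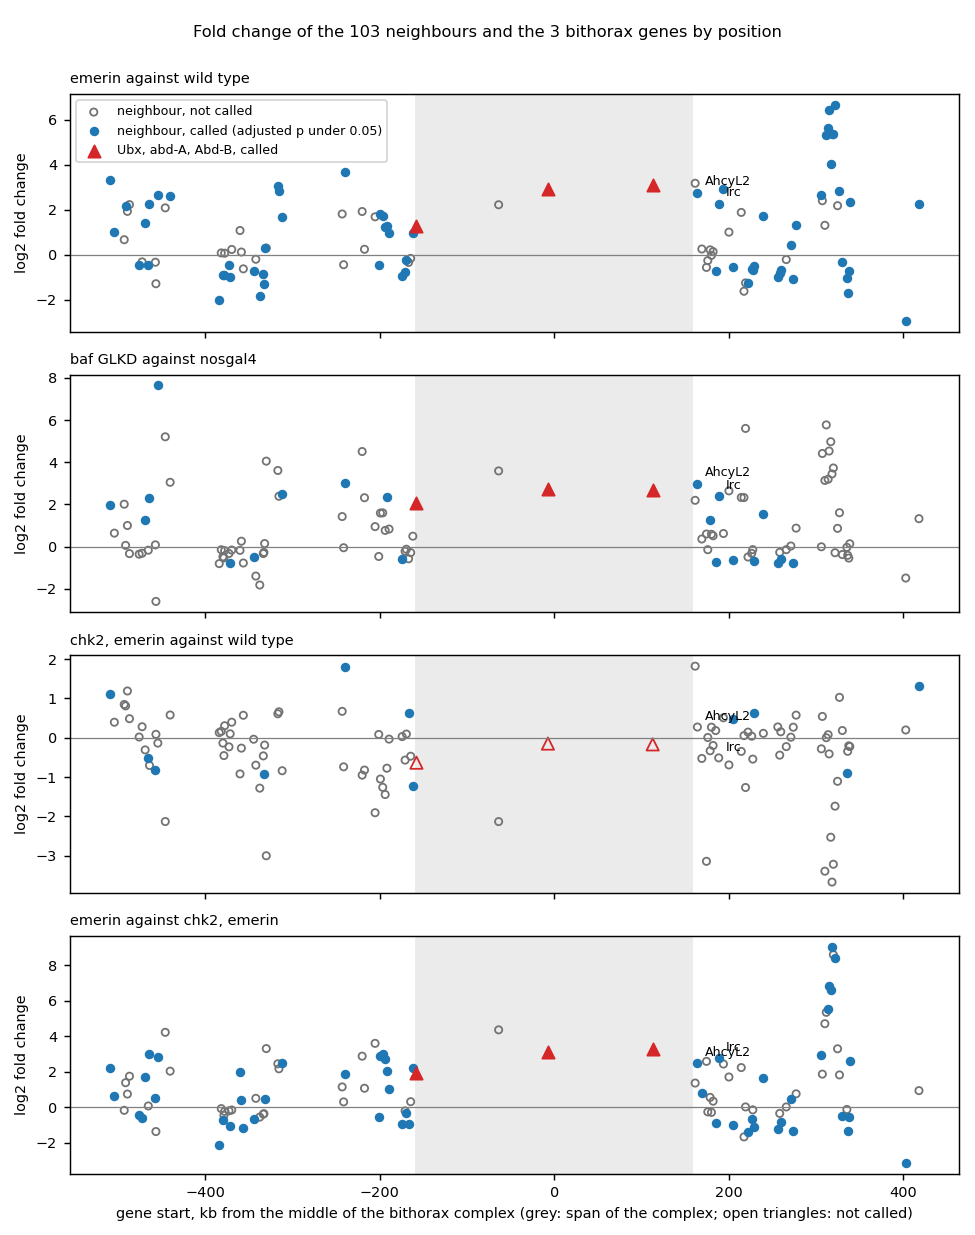
Log2 fold change of each of the 103 neighbours (points) and of Ubx, abd-A and Abd-B (triangles) against distance in kb from the middle of the complex, in 4 panels for the 4 main comparisons; the grey band is the span of the complex and filled points passed an adjusted p of 0.05. Higher and lower genes lie on both sides. Between emerin and wild type 18 were higher and 15 lower on the left, and 17 higher and 15 lower on the right. The 17 include AhcyL2, which was chosen with its values known. Folds of genes with few counts depend on the prior count of the fit.

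Between baf GLKD and nosgal4, 11 neighbours were higher and 9 lower, or 19.4% of the neighbours against 21.5% of all genes (13.3% higher and 8.28% lower). The medians of the log2 fold change were 0.26 and 0.11. With library size alone as the scaling, the split was 13 higher and 3 lower (1818 and 444 over all genes). The median over all genes moved from 0.11 to 0.29, so the balance of higher and lower calls here depends on the scaling. With TMM scaling, 17.6% of the nearest 17 neighbours (3 genes, AhcyL2 among them) were higher and 1 was lower. Without baf GLKD 1, 6 neighbours were called, without nosgal4 1 or nosgal4 2 it was 8, and without baf GLKD 2 it was 12.

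Between chk2, emerin and wild type, 6 neighbours were higher and 5 lower, or 10.7% of the neighbours against 7.58% of all genes (2.82% higher and 4.76% lower). This count was small and moved with the libraries: leaving out any 1 of CS 2, CS 3, G/PI 2, G/PK 1, G/PK 2 or a double-mutant library gave 2 to 5 calls. With DESeq2 it was 7 higher and 10 lower (744 and 1156 over all genes). With library size alone it was 4 higher and 8 lower (253 and 923 over all genes). Emerin and chk2, emerin share the loss of emerin and differ in chk2. They also differ in that the emerin group pools G/PI with G/PK and holds G/PI 1 of the first library set. The double mutant carries G/PK alone and lies wholly in the second set. Between these groups 29 neighbours were higher in emerin and 23 lower, or 50.5% against 49.1% of all genes (26.4% higher and 22.7% lower). The comparisons of emerin with wild type, of chk2, emerin with wild type and of emerin with chk2, emerin share libraries, so their values are given side by side only.

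**Figure D2:**
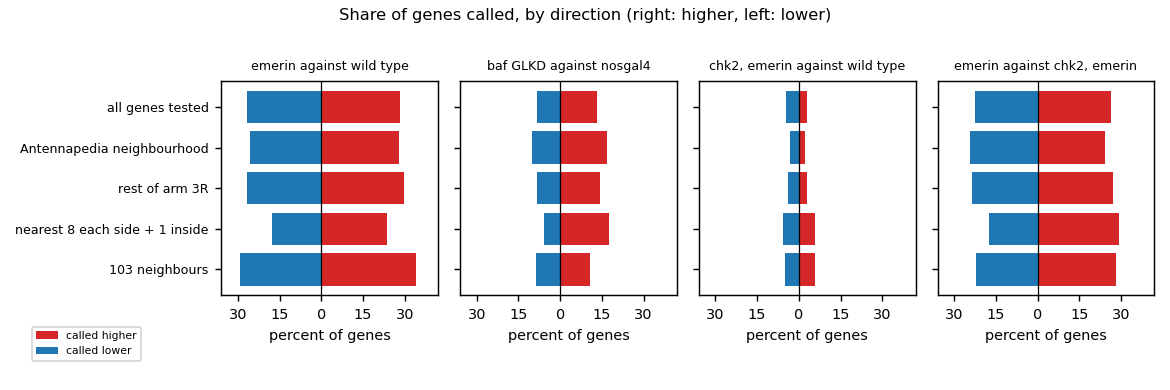
Percent of genes called higher or lower (adjusted p under 0.05) in each of the 4 main comparisons for the 103 neighbours, the nearest 17, the rest of arm 3R, the 90 genes around the Antennapedia complex and all 12762 genes tested. Bars to the right of 0 are genes called higher and bars to the left genes called lower. The bars of the neighbourhood stand close to those of all genes, with 63.1% against 54.9% for emerin and 19.4% against 21.5% for baf GLKD.

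Of the 11 neighbours higher in baf GLKD, 10 were also higher in emerin (90.9% of the 11 and 28.6% of the 35), and all 9 that were lower in baf GLKD were also lower in emerin (100% of the 9, of 30 lower in emerin). Over all genes the same shares were 93.1% and 43.7% for higher genes, and 95.9% for lower genes in baf GLKD. No neighbour was called in opposite directions. The difference between the baf GLKD effect and the emerin effect, tested directly, passed the threshold for 0 neighbours (edgeR, lowest adjusted p 0.407), with 12 at an unadjusted p under 0.05, and DESeq2 also called 0. Over all 12762 genes edgeR called 6, and DESeq2 called 61 higher and 70 lower. The 0 among the neighbours is near that share and does not show that they respond alike. In 30 neighbours no call was made in any of the 4 main comparisons. The same share over all genes was not counted, so the 30 cannot be read as a trait of the neighbourhood. The neighbours higher in both were Zip89B, CG14879, CG10311, js, CG42342, Scp2 and Ccdc114 on the left and Irc and Dad on the right, and the count of 10 also holds AhcyL2, which was singled out for this behaviour.

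AhcyL2, which encodes a protein like S-adenosylhomocysteinase, the enzyme that breaks down a product of methylation reactions, is the second neighbour to the right. It lies at 16978439 to 16982158, its low end 6.20 kb from the complex. Its CPM was 0.81, 1.63, 2.39 and 2.90 in CS and 1.95, 1.6 and 2.22 in yw. It was 10.3 and 17.1 in G/PI, and 12.8 and 12.4 in G/PK. Every emerin library was above every wild-type library. In nosgal4 the CPM was 1.73 and 0.753, in baf GLKD 13.9 and 5.84, and in chk2, emerin 1.63, 3.08 and 2.28. The baf GLKD libraries did not overlap with nosgal4, while the double mutant overlapped with wild type. The log2 differences were 2.77 ± 0.33 (SE) between emerin and wild type, 2.99 ± 0.57 between baf GLKD and nosgal4 and 0.27 ± 0.37 between chk2, emerin and wild type. Between emerin and wild type the log2 difference was 2.70 within the first library set and 2.43 within the second, and between baf GLKD and nosgal4 it was 3.01 and 2.95.

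Irc encodes an immune-regulated catalase, which removes hydrogen peroxide. It lies 30.6 kb to the right, at 17002875 to 17007208. Its CPM ran from 23.1 through a median of 35.8 to 44.6 in the 7 wild-type libraries, and was 143 and 190 in G/PI and 182 and 184 in G/PK. It was 25.8 and 21.9 in nosgal4, 137 and 113 in baf GLKD, and 31.0, 25.4 and 19.2 in chk2, emerin. The mutant groups other than the double mutant stood wholly above their references. Irc was 4.85-fold higher in emerin (log2 2.28 ± 0.16, adjusted p = 2.3e-08) and 5.23-fold higher in baf GLKD (log2 2.39 ± 0.28, adjusted p = 7.3e-05), both by edgeR, and its difference in the double mutant, -0.51 ± 0.19, did not pass (adjusted p = 0.11).

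CG10311, with no role stated here, lies 306 kb to the left, at 16350786 to 16357015. Its CPM ran from 7.92 through 13.8 to 16 in wild type, and was 45.0 and 62.9 in G/PI and 63.7 and 68.3 in G/PK. It was 7.14 and 7.93 in nosgal4, 34.0 and 41.5 in baf GLKD, and 6.75, 9.29 and 6.73 in chk2, emerin. It was 4.85-fold higher in emerin (log2 2.28 ± 0.19, edgeR adjusted p = 9.2e-08) and 5.0-fold higher in baf GLKD (log2 2.32 ± 0.32, adjusted p = 0.00023). The groups of both comparisons did not overlap, and the value in the double mutant, -0.70 ± 0.22, missed the threshold (adjusted p = 0.062).

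Dad encodes the inhibitory Smad of the Dpp pathway, the BMP-type signal that maintains germline stem cells in the ovary. It lies 81.8 kb to the right. Its CPM was 16.7 to 33.3 with a median of 28 in wild type, 67.8 and 77.7 in G/PI, and 101 and 110 in G/PK. It was 26.9 and 17.6 in nosgal4, 55.7 and 73.2 in baf GLKD, and 33.7, 24.4 and 28.3 in chk2, emerin. The difference was 3.34-fold in emerin (log2 1.74 ± 0.18, edgeR adjusted p = 9.4e-07) and 2.90-fold in baf GLKD (log2 1.53 ± 0.30, adjusted p = 0.0028), with no overlap in either, and 0.11 ± 0.20 on the log2 scale in the double mutant (adjusted p = 0.76).

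**Figure D3:**
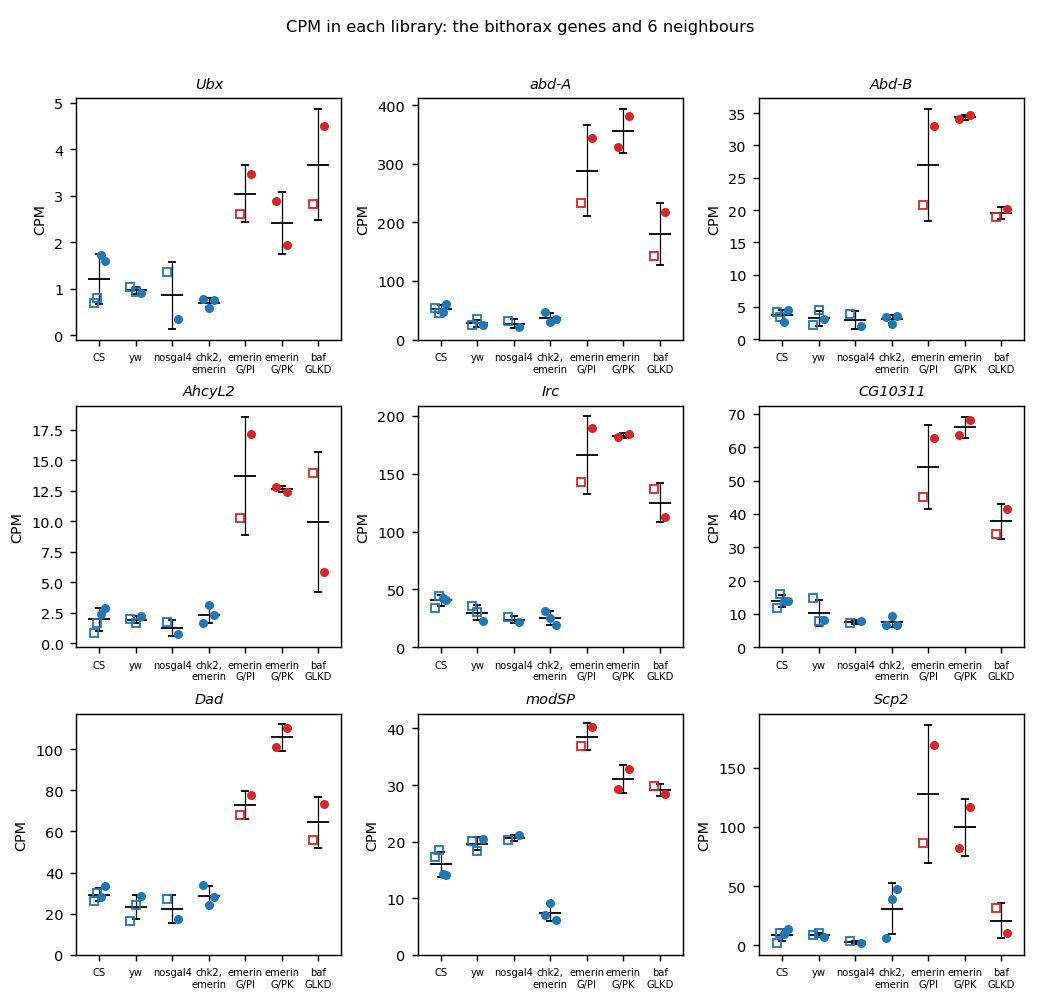
CPM per library of Ubx, abd-A, Abd-B and of 6 neighbours that were higher in emerin, by genotype; open squares are the first library set, filled circles the second, lines are group means and bars their SD. For abd-A, Abd-B, AhcyL2, Irc, CG10311 and Dad the emerin and baf GLKD libraries lie above CS, yw and nosgal4. For these genes chk2, emerin lies near the references but not always within their range. Irc is at 19.2 to 31.0 CPM there, and the lowest of these libraries is below every reference library.

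The likeness of each gene to the complex was measured over the 7 genotype means, as the root mean square difference between its centred log2(CPM + 0.5) profile and the mean profile of Ubx, abd-A and Abd-B. The nearest neighbours in pattern were Irc at 0.107, CG10311 at 0.181, AhcyL2 at 0.209, Decay at 0.369 and Dad at 0.397. Of all genes tested 0.0314% were as near as Irc, 0.290% as CG10311, 4.15% as Decay and 4.88% as Dad. No share is given for AhcyL2, which was chosen with its pattern known. The others were picked as the nearest of the 103 neighbours, so these shares do not measure chance. Pearson's r over the 7 genotypes, given as a description, was 0.997 for Irc, 0.989 for CG10311, 0.986 for AhcyL2, 0.953 for Decay and 0.981 for Dad. The order in pattern did not follow the order on the chromosome: Irc, CG10311 and AhcyL2 lie 30.6, 306 and 6.20 kb away. Over the neighbourhood the median difference was 1.13, against 1.16 over all genes, and 8 of the 103 neighbours (7.77%) lay within 0.5, against 7.92% of all genes. An r of at least 0.8 was reached by 30.1% of the neighbours and 25.2% of all genes. It was also reached by 4 of the 17 nearest, AhcyL2 among them. The values 0.5 and 0.8 were chosen after the profiles had been seen.

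**Figure D4:**
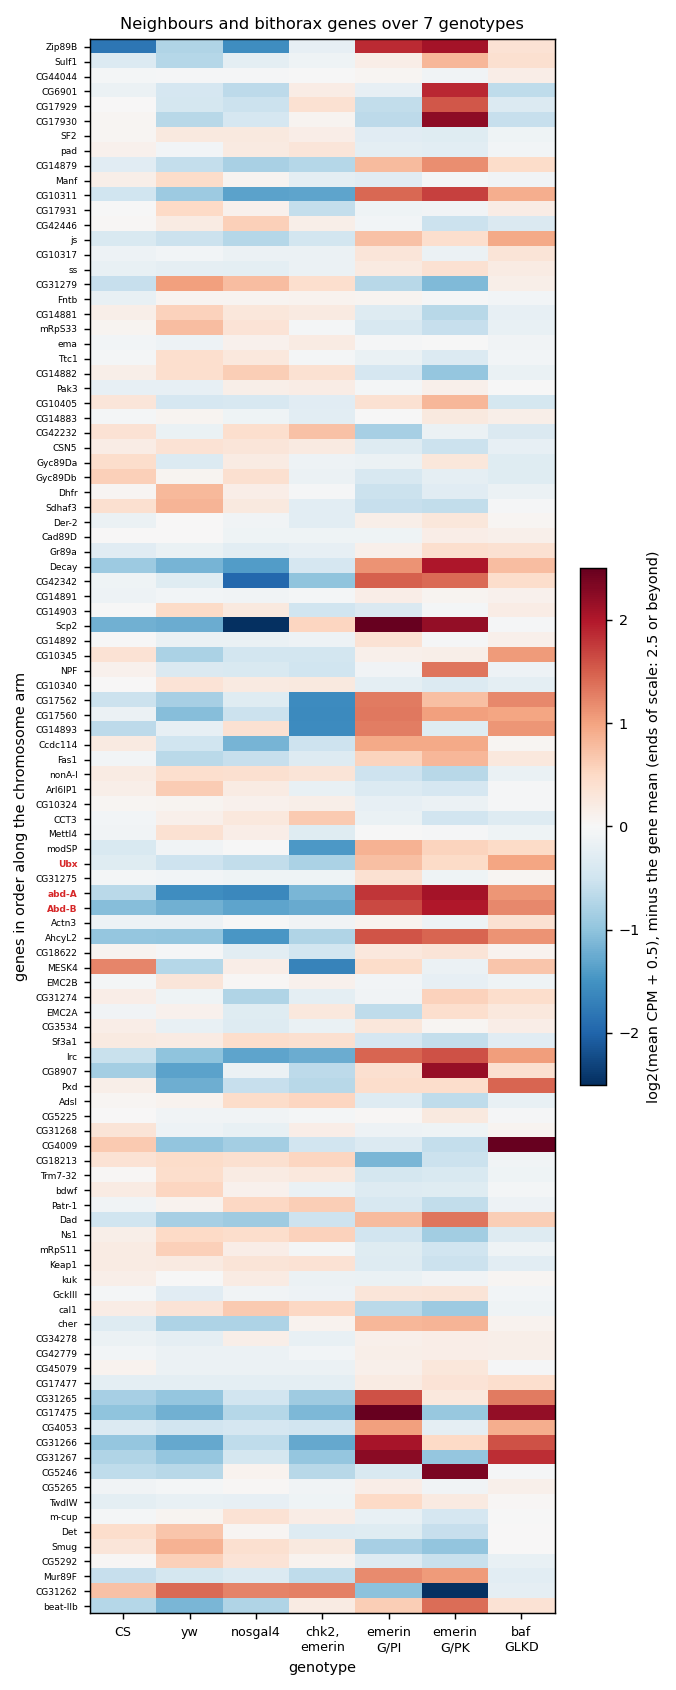
Centred log2(CPM + 0.5) of the 103 neighbours and the 3 Hox genes (rows, in the order of the chromosome) in the 7 genotypes (columns). Rows that resemble those of the Hox genes, high in G/PI, G/PK and baf GLKD, are scattered among rows of the opposite pattern, and 30.1% of the neighbours have an r of at least 0.8 with the mean Hox profile, against 25.2% of all genes.

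The genes that directly flank the complex did not move as a block. On the left, the first gene is modSP, a serine protease that acts upstream of Toll in immunity, 4.18 kb away. Its CPM was 14.1 to 20.5 with a median of 18.3 in wild type, 36.9 and 40.2 in G/PI, 29.2 and 32.8 in G/PK, and 6.96, 9.15 and 6.24 in chk2, emerin. It was higher in emerin (log2 0.99 ± 0.14, edgeR adjusted p = 1.8e-05) and lower in the double mutant (-1.24 ± 0.17, adjusted p = 0.0006), without overlap in either. It was the sole neighbour with such a reversal of calls, and the sole neighbour whose call in the double mutant held when each library was left out in turn. In baf GLKD (29.9 and 28.4 CPM, against 20.3 and 21.1 in nosgal4) it did not pass (0.49 ± 0.22, adjusted p = 0.13).

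Further left, the methyltransferase-like gene Mettl4 at 6.6 kb stood at log2 differences of -0.15 in emerin, -0.29 in baf GLKD and -0.47 in the double mutant, none of which passed the test. CCT3 at 9.0 kb was 423 to 797 CPM in wild type and 889 to 1064 CPM in the double mutant, where it was higher (0.63 ± 0.18, edgeR adjusted p = 0.043), though this call was lost without any 1 of 13 libraries. CG10324 was lower in emerin by a small margin (-0.24, adjusted p = 0.047). Arl6IP1, which shapes the endoplasmic reticulum, was lower in emerin (-0.77, adjusted p = 0.0011), as was nonA-l, an RNA-binding protein gene (-0.92, adjusted p = 1.2e-05). The cell adhesion gene Fas1 was higher in emerin, at 321 to 505 CPM against 106 to 259 CPM (0.99, adjusted p = 0.00034). Ccdc114 was higher in emerin (1.28) and in baf GLKD (2.34), at levels of at most 3.14 CPM. Its mean was 1.19 CPM in baf GLKD, against 0.231 CPM in nosgal4 and 1.08 CPM in wild type. The baf GLKD level was thus above the low driver control but near that of the reference strains. Of these 8 genes on the left, 3 were higher and 3 lower in emerin.

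Inside the complex, CG31275 held no more than 0.407 CPM in any wild-type or emerin library, and no call was made. On the right, Actn3, an alpha-actinin gene 3.6 kb away, was nearly silent, with 4 counts summed over the emerin and wild-type libraries. AhcyL2 came next. CG18622 at 11.3 kb did not pass in emerin, baf GLKD or the double mutant. EMC2A and EMC2B, which encode a subunit of a complex that inserts membrane proteins, and CG3534 did not pass in any of the 4 main comparisons. EMC2B stood at 43.0 to 85.5 CPM in wild type and 42.2 to 52.5 CPM in emerin, with a log2 difference of -0.25 ± 0.16. MESK4 stood at 3.97 to 8.44 CPM in CS and 1.33 to 1.59 CPM in yw, without overlap, and this difference did not pass (2.25 ± 1.03, edgeR adjusted p = 0.17). CG31274 was higher in baf GLKD alone (1.26, adjusted p = 0.024), a call lost without nosgal4 2 or baf GLKD 1.

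Farther out, Scp2 had the highest fold change in emerin among called neighbours with 100 or more counts and no overlap between the groups. Scp2, a sarcoplasmic calcium-binding protein gene 82.1 kb to the left, was 2.04 to 14.1 CPM in wild type, 86.4 and 169 CPM in G/PI, 82.6 and 117 CPM in G/PK, and 6.34, 39.6 and 47.2 CPM in chk2, emerin. It was 12.8-fold higher in emerin (log2 3.68 ± 0.49, edgeR adjusted p = 1.2e-05), and also passed in baf GLKD (3.03 ± 0.86, adjusted p = 0.020) and in the double mutant (1.80 ± 0.51, adjusted p = 0.041). Without baf GLKD 1, nosgal4 1 or nosgal4 2 the call in baf GLKD was lost, and the call in the double mutant was lost without any 1 of 9 libraries. The 7 muscle sheath markers were all higher in emerin (median log2 fold change 2.39), and 5 of them in baf GLKD (median 2.21). In the double mutant, where Scp2 was higher, 0 of these markers were higher and 1 was lower (median -0.26). Their part in this result was not tested.

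Zip89B, a zinc transporter gene near the left end of the window, was 4.17 to 11.7 CPM in wild type and 58.6 to 85.0 CPM in emerin. It was 10.1-fold higher in emerin (3.34 ± 0.30, edgeR adjusted p = 2.4e-07), and higher in baf GLKD (1.99, adjusted p = 0.012). Its call in the double mutant (1.12, adjusted p = 0.046) was lost without any 1 of 16 libraries, and that in baf GLKD without nosgal4 1, nosgal4 2 or baf GLKD 2. It also differed between the reference strains, being lower in CS than in yw (-1.12 ± 0.26, adjusted p = 0.011), with 4.17 to 4.81 CPM in CS and 7.13 to 11.7 CPM in yw. Decay, a caspase gene, was higher in emerin (2.83 ± 0.78, adjusted p = 0.0058) and ranged widely within the references, from 0.347 to 9.28 CPM in wild type and with 4.45 and 0.133 CPM in nosgal4. Mur89F, a mucin-related gene, was 0.285 to 0.739 CPM in wild type and 1.39 to 4.15 CPM in emerin (2.36 ± 0.41, adjusted p = 0.00014), while in baf GLKD its difference was 0.13 ± 0.67 (adjusted p = 0.91). The adhesion molecule gene beat-IIb, the last member on the right, was higher in emerin (2.26, adjusted p = 3.3e-05) and in the double mutant (1.32, adjusted p = 0.037), the latter call being lost without any 1 of 7 libraries.

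A run of related genes 36 to 41 kb left of the complex, the fatty acyl-CoA reductase genes CG14893, CG17560 and CG17562, was higher in emerin, with log2 fold changes of 1.26, 1.73 and 1.82. The call of CG14893 (edgeR adjusted p = 0.043) was lost without any 1 of 14 libraries. CG17562 was 1.74 to 8.44 CPM in wild type, 11.0 to 22.0 CPM in emerin and 1.76 to 2.48 CPM in the double mutant. Between emerin and chk2, emerin the difference of CG17562 was 2.87 ± 0.48 (edgeR adjusted p = 0.00012) and that of CG17560 was 2.99 ± 0.59 (adjusted p = 0.00053). In baf GLKD none of the 3 passed. The summed CPM of 5 fat body markers was 39.9 to 336 in wild type, 486 to 1885 in emerin, 85.4 to 105 in chk2, emerin, 52.5 to 72.9 in nosgal4 and 573 to 894 in baf GLKD, and their part in this result was not tested. That of 6 hemocyte markers, the blood cells in which several immune genes are used, was 42.3 to 242 in wild type, 899 to 1644 in emerin, 94.7 to 137 in chk2, emerin, 30.6 to 56.9 in nosgal4 and 496 to 730 in baf GLKD. It rose with Irc in emerin and baf GLKD, and with modSP in emerin. In baf GLKD modSP did not pass (0.49 ± 0.22, edgeR adjusted p = 0.13). In the double mutant modSP was lower (-1.24 ± 0.17), while the hemocyte sum lay within the wild-type range. The part of these markers was again not tested.

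A cluster of trypsin-like serine protease genes 156 to 164 kb right of the complex passed the test in emerin with most of their emerin counts in 1 library each. CG31266 had 219 counts in G/PI 1, 48 in G/PK 1, 3 in G/PI 2 and 1 in G/PK 2, at most 7 in any wild-type library, 162 in baf GLKD 1, 0 in baf GLKD 2, 14 in nosgal4 1 and 0 in all double-mutant libraries. Its call between emerin and wild type was lost without G/PI 1 (edgeR adjusted p = 0.0656). CG17475, CG31267, CG31265 and CG4053, named after their values had been seen, were also highest in G/PI 1 and baf GLKD 1, with 370, 207, 119 and 38 counts in G/PI 1 and 249, 156, 98 and 42 in baf GLKD 1. Their calls were lost without G/PI 1 as well. CG5246 had 126 counts in G/PK 2 and 13 in G/PK 1, and its call held with each library left out. No fold is given for these genes, since a few libraries carried nearly all of their counts.

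Among the neighbours that were lower in emerin, CG31262, 245 kb to the right, had the lowest log2 fold change of those called. It was 30.4 to 73.3 CPM with a median of 36.9 in wild type, 12 and 6.79 CPM in G/PI, 1.79 and 1.05 CPM in G/PK and 43.7 to 50.3 CPM in the double mutant. Emerin and wild type did not overlap (log2 -2.92 ± 0.50, edgeR adjusted p = 0.00013). It was also the sole neighbour that differed between the allele combinations, lower in G/PK than in G/PI (-2.73 ± 0.34, adjusted p = 0.0024), a call lost without G/PK 2 (adjusted p = 0.11). In baf GLKD, at 15 and 18.2 CPM against 46.5 and 46.9 CPM in nosgal4, its difference did not pass (-1.49 ± 0.70, adjusted p = 0.14).

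The gene cal1, whose product loads the centromeric histone, was 48.3 to 81.3 CPM in wild type, 33.8 and 30.8 CPM in G/PI, 29.4 and 25.0 CPM in G/PK and 68.1 to 81.9 CPM in chk2, emerin. It was lower in emerin (-1.05 ± 0.15, edgeR adjusted p = 2.6e-05) and in baf GLKD (-0.76 ± 0.23, adjusted p = 0.029). Ns1 was 170 to 324 CPM in wild type and 98.2 to 154 CPM in emerin (-0.97 ± 0.16, adjusted p = 9.8e-05). The splicing factor gene Sf3a1, 27.2 kb to the right and next to Irc, was 80.1 to 105 CPM in wild type and 52.3 to 68.4 CPM in emerin (-0.72 ± 0.10, adjusted p = 2.6e-05), and 60.6 and 72.1 CPM in baf GLKD against 115 and 105 CPM in nosgal4 (-0.73 ± 0.16, adjusted p = 0.0058). Irc and Sf3a1 are thus neighbours that were called in opposite directions in both comparisons.

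**Figure D5:**
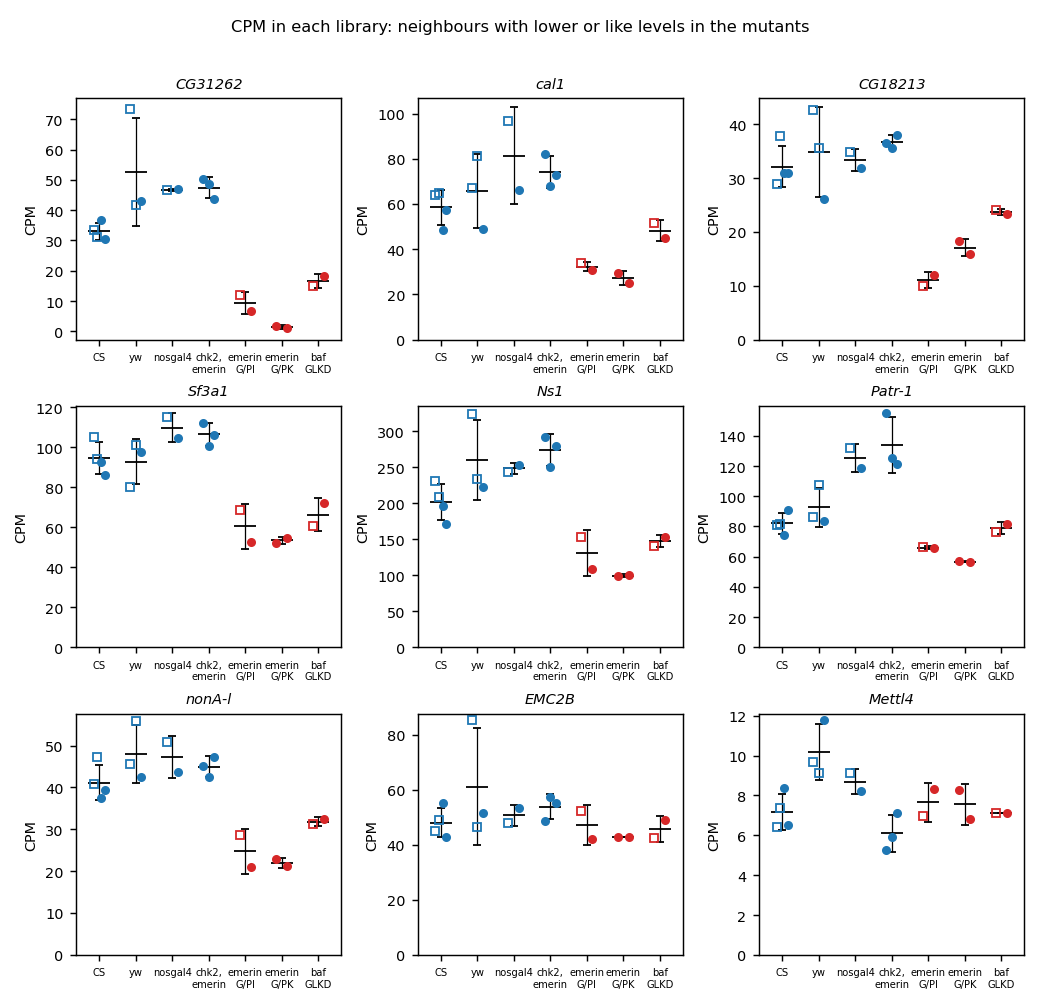
CPM per library of 7 neighbours that were lower in emerin and of EMC2B and Mettl4, which were not called; open squares are the first library set, filled circles the second, lines are group means and bars their SD. The emerin libraries of cal1 lie at 25.0 to 33.8 CPM, all below the wild-type range of 48.3 to 81.3 CPM, and for CG31262 the G/PK libraries lie below those of G/PI.

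Patr-1, which acts in mRNA decay, and Adsl, an enzyme of purine synthesis, were lower in emerin (-0.50 and -0.54) and in baf GLKD (-0.67 and -0.65), and higher in the double mutant (0.63 with adjusted p = 0.0048, and 0.48 with adjusted p = 0.043). Patr-1 was 74.6 to 108 CPM in wild type, 56.3 to 66.6 CPM in emerin and 121 to 155 CPM in chk2, emerin. They were the sole neighbours lower in emerin and higher in the double mutant. Leaving out chk2, emerin 1 ended the call of Patr-1 in the double mutant (edgeR adjusted p = 0.0585), and that of Adsl was lost without any 1 of 12 libraries. With cal1, Ns1 and Sf3a1, the genes nonA-l, CG14882, CSN5 and Keap1 completed the 9 neighbours lower in both emerin and baf GLKD. Smug, a uracil-DNA glycosylase gene, and CG18213 were lower in emerin (-1.68 and -1.25), and Sdhaf3, an assembly factor of succinate dehydrogenase, was lower in emerin (-1.27, adjusted p = 0.00026) and in the double mutant (-0.91, adjusted p = 0.041). Manf and Det were lower in both of these too, at -0.53 and -0.89 in the double mutant, and CG17931 in the double mutant alone at -0.82. The 8 germline markers were all lower in emerin (median log2 fold change -2.12), 4 of them in baf GLKD (median -1.25) and none in the double mutant, and their part in these results was not tested.

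Each library was left out in turn for every called neighbour other than AhcyL2. In the baf GLKD comparison 3 of 19 calls kept an adjusted p under 0.05 throughout (edgeR), those of Irc, CG10311 and Dad. Between emerin and wild type 46 of 64 calls held, and among the 18 lost were CG10324, CG31279, CG14893, js and the protease genes other than CG5246. Between emerin and chk2, emerin 33 of 51 held, between chk2, emerin and wild type 1 of 11, and between CS and yw 1 of 9. The same shares over all called genes are not given here, so these counts cannot be read as a trait of the neighbourhood.

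The reference groups were compared with each other in the same way. Between CS and yw, 3 neighbours were higher and 6 lower, or 8.74% against 12.4% of all genes (6.37% higher and 6.06% lower). With library size alone the split turned to 6 higher and 3 lower (1168 and 391 over all genes). Without yw 2 the count was 15, without CS 1 or yw 1 it was 3 and without CS 4 it was 4. The neighbours named by rule were Ccdc114 (1.11) and Fas1 (0.61), higher in CS, and Zip89B and CG31279 (-2.31), lower in CS. Of the 9 calls, that of Zip89B alone held with each library left out, that of Fas1 was lost without any 1 of 15 libraries, that of Ccdc114 without any 1 of 10 and that of CG31279 without yw 1. Among the Hox genes, abd-A was higher in CS than in yw (0.89 ± 0.22, edgeR adjusted p = 0.019), a call lost without CS 4, yw 1 or yw 3. Between G/PK and G/PI 1 neighbour, CG31262, was called, or 0.971% against 0.697% of all genes (0.0862% higher and 0.611% lower), and without G/PK 2 none. Between nosgal4 and wild type no neighbour was called by edgeR (0.196% of all genes, 0.133% higher and 0.0627% lower), with 15 at an unadjusted p under 0.05 and 3 by DESeq2.

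The proteins known to act on the complex were read from a list of Polycomb group, Trithorax group and insulator genes. Of 20 Polycomb group genes, 1 was higher and 11 lower in emerin (median log2 fold change -0.52), 0 were higher and 2 lower in baf GLKD, 1 was higher in chk2, emerin, and 14 were lower in emerin than in chk2, emerin. Over all genes 28.3% were higher and 26.6% lower in emerin, 8.28% lower in baf GLKD and 22.7% lower in emerin than in chk2, emerin. Pcl was 96.2 to 182 CPM in wild type and 60.1 to 74.9 CPM in emerin (-1.08 ± 0.16, edgeR adjusted p = 2.6e-05), and Scm was 65.2 to 87.5 CPM and 48.9 to 57.1 CPM (-0.61 ± 0.10, adjusted p = 0.00012). The one higher in emerin was ph-p (0.97 ± 0.25, adjusted p = 0.0031), named after its value had been seen. Of 12 Trithorax group genes 3 were lower in emerin and 1 in baf GLKD, with Trl, which encodes GAGA factor, at 216 to 272 CPM in wild type and 122 to 148 CPM in emerin (-0.79 ± 0.09, adjusted p = 3.7e-06). All 7 insulator genes were lower in emerin (median log2 fold change -0.56), against 26.6% of all genes, and 3 of 7 were lower in emerin than in chk2, emerin, against 22.7%. In baf GLKD 0 of the 7 passed by edgeR, with 1 at an unadjusted p under 0.05 and 1 called by DESeq2, against 8.28% of all genes lower by edgeR. The germline markers fell in the same libraries, and their part was not tested. Of the other Hox genes, pb was under the minimum of 10 counts, and of the 4 tested 2 were called in emerin and 1 in baf GLKD, where the median log2 fold change was -0.20. Antp was higher in emerin (1.95 ± 0.23, adjusted p = 4e-06) and in baf GLKD (2.26 ± 0.40, adjusted p = 0.0013), at up to 29.8 CPM in wild type and 52.9 to 86.4 CPM in emerin. The gene lab was higher in emerin too (2.80 ± 1.09, adjusted p = 0.039), at 3.2 and 3.43 CPM in G/PK, at most 0.259 CPM in G/PI and at most 1.22 CPM in wild type. Dfd and Scr, at no more than 0.105 and 0.0815 CPM in emerin, did not pass there. Scr was called higher in chk2, emerin than in wild type (adjusted p = 0.043) and lower in emerin than in chk2, emerin, at 0.163 to 0.489 CPM in the double mutant and at most 0.153 CPM in wild type.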

How the data were processed

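The authors trimmed paired reads with Trim Galore 0.6.6, estimated transcript abundance with kallisto 0.46.1 on the BDGP6 (dm6) transcriptome and summed transcripts to genes with tximeta. Versions follow the submitters' processing notes. The deposited gene table holds estimated counts, which were rounded to whole numbers here, and the deposited transcript tables hold TPM per library, summed here to genes; 133 of 30944 transcripts had no gene. Positions came from BDGP 6.54 annotation, with 14194 of 14237 genes matched. Genes with at least 10 counts in total (12762) were tested with edgeR 4.0.16 (limma 3.58.1, R 4.3.3), quasi-likelihood, TMM, two-sided, Benjamini-Hochberg over all genes at 0.05. All 18 libraries entered each fit, as 5 groups (CS with yw, G/PI with G/PK) or, for CS against yw and G/PK against G/PI, as 7 genotypes. The SE is the absolute log2 fold change over the square root of F. Figures used matplotlib 3.10.9, tables pandas 2.3.3 and numpy 2.4.6 under Python 3.11.15. The fitting code was tested on simulated data.

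The members and the gene lists were chosen with earlier results of these data known. Named genes were the Hox genes, AhcyL2, the gene inside the complex, the 8 nearest on each side, the 5 highest and 5 lowest called members of each of the 4 main comparisons with 100 or more counts and no overlap between groups (2 and 2 in the others), the 5 nearest in likeness, and the list genes with the 3 smallest adjusted p. Replicates are separate isolates per the study's methods, which state fewer CS libraries than the 4 labelled here. The columns of the gene table name each library. Alternatives included DESeq2 1.42.0, other scalings, filters, thresholds and blocks, and each library left out. Promoter letters were not analysed here. Depth limits precision, and no interval beyond the SE is given.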

Additional observations from a re-analysis of the deposited data

Results flagged for a closer look

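In groups of 4 to 10 samples, 93 tests for a library far from the rest of its group were made on the named genes, and 16 marked one. Chance alone marks about 1 in 20. Of the marks, 7 fell on G/PI 1, the sole emerin library of the first library set. Abd-B was 20.8 CPM there, against 33.0 to 34.6 CPM in the other emerin libraries. CCT3 was 683 CPM against 442 to 458 CPM, EMC2B 52.5 CPM against 42.2 to 42.8 CPM, Sf3a1 68.4 CPM against 52.3 to 54.6 CPM, and CG31279 0.733 CPM against 0.199 to 0.262 CPM. The nearly silent genes CG31275 (0.407 CPM) and Actn3 (0.163 CPM) had counts in G/PI 1 and none in the other emerin libraries. A further 6 marks fell on yw 1, in the same library set. Against the other wild-type libraries, Arl6IP1 was 105 CPM (51.3 to 72.6), EMC2B 85.5 CPM (43.0 to 55.3), CG31262 73.3 CPM (30.4 to 43.0), Smug 12 CPM (4.05 to 6.57), Sdhaf3 30.6 CPM (12.3 to 18) and Ns1 324 CPM (170 to 234). The remaining marks fell on the protease genes: CS 3 held 0.356 CPM of CG31266 (others up to 0.116) and 0.102 CPM of CG5246 (others 0), and G/PK 2 held 6.60 CPM of CG5246 against 0.0407 to 0.645 CPM.

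CG31262 differed between the emerin allele combinations, with a log2 fold change of -2.73 ± 0.34 (SE) for G/PK against G/PI (edgeR adjusted p = 0.0024), lower in 2 of 2 G/PK libraries than in both G/PI libraries.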

How the results depend on the processing

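For single genes named in the text, 110 results were compared with alternatives 3704 times: 3248 kept direction and side of the threshold, 454 kept the direction and lost the call, and 2 changed sign. The sign changes were abd-A between chk2, emerin and wild type with yw alone as reference (log2 0.43) and AhcyL2 in the same comparison within the second library set (-0.12), neither of which was called in any setting shown. Counts of neighbours called moved by over 1.5 times as follows, and where no cause is named the cause was not tested. Shares over all genes are not given beside these counts. At an adjusted p under 0.01 the count was 7 for baf GLKD, 2 for chk2, emerin against wild type, 34 for emerin against chk2, emerin and 0 for CS against yw. With an added 2-fold minimum it was 39 for emerin, 11 for baf GLKD, 4 for chk2, emerin against wild type, 33 for emerin against chk2, emerin and 4 for CS against yw. Both are stricter by construction. DESeq2 called 17 for chk2, emerin against wild type, 16 for CS against yw, 2 for G/PK against G/PI and 3 for nosgal4 against wild type. With only the compared groups in the fit, which leaves fewer samples, the counts were 2 for chk2, emerin against wild type, 3 for CS against yw and 0 for G/PK against G/PI. With the library set as a block, chk2, emerin against wild type gave 7, and with gene counts from the transcript tables CS against yw gave 5. Nosgal4 against wild type gave 2 with 7 separate genotypes and 6 with CS alone as reference. The library sets were added as alternatives after seeing the data and hold fewer samples: the first set alone gave 7 for emerin, 0 for baf GLKD and 0 for CS against yw, and the second alone gave 7 for baf GLKD, 0 for CS against yw, 0 for G/PK against G/PI and 1 for nosgal4 against wild type.

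Leaving out each library gave 57 to 70 calls for emerin, 6 to 21 for baf GLKD, 2 to 12 for chk2, emerin against wild type, 39 to 52 for emerin against chk2, emerin, 3 to 15 for CS against yw, 0 to 1 for G/PK against G/PI and 0 to 0 for nosgal4 against wild type. Where 1 library remained on a side, it was taken to vary like the other groups.

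The replicate numbers name libraries and are not stated to pair them. Over 45 same-numbered pairs the median correlation of deviations from the group means was 0.071, with 17 pairs over 0.1, and not every sample correlated best with its own number. With the replicate number as a block the counts were 67 for emerin, 19 for baf GLKD, 5 for chk2, emerin against wild type, 2 for CS against yw and 1 for nosgal4 against wild type. For baf GLKD the share of higher calls moved from 55% to 65.4% with DESeq2 (17 higher, 9 lower). RLE scaling alone in edgeR moved it nearly as far, to 64.7% (11 higher, 6 lower). For chk2, emerin against wild type the share moved from 54.5% to 41.2% with DESeq2 and to 60% with RLE scaling. Among the 5 neighbours nearest in pattern to the complex, 4 remained with Pearson's r as the measure, and 4, 4 or 5 with abd-A, Abd-B or Ubx left out. Neighbours with few counts, 40 of which had under 1 TPM in wild type, set the limit of what these depths can show.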
